A study of Mus musculus with 20 samples.

Results

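The genes described are the MHC class II genes H2-Aa, H2-Ab1, H2-Eb1, H2-DMa, H2-DMb1, Cd74 and Ciita, 7 of the 16003 genes counted in single cells from mouse spinal cord. They were chosen by symbol, as genes of the class II pathway. Class II molecules are α and β chain pairs that present peptides from the endosomal pathway to CD4+ T cells. The chains assemble on the invariant chain, which keeps the groove closed until the endosome, and the H2-DM heterodimer then exchanges the remaining invariant chain fragment for other peptides. Transcription of the chain genes depends on the coactivator CIITA, which is recruited to paired promoter elements by RFX and NF-Y. In the cord, dendritic cells, B cells and macrophages of the meninges and perivascular spaces are the known class II cells, and resting microglia are known for carrying little.

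Cells came from female C57BL/6J mice aged 8 to 10 weeks at purchase. Their diet held the CSF1R antagonist PLX5622 at 1200 ppm or vehicle from 2 weeks before surgery onwards. This dose is that of the sample labels, and the paper's methods also give a lower ppm figure. Surgery was a contusion at the ninth thoracic level (spinal cord injury, SCI) or a sham laminectomy, and a 1 cm piece of unperfused cord with its meninges was dissociated at 7 or 28 days post injury (dpi). PLX5622 depletes microglia and can act on other CSF1R-dependent myeloid cells. There were 6 libraries, sham, 7 dpi and 28 dpi for each diet, and each was a pool of mice of 1 condition, with sham pools not divided by day. With 1 library per condition there is no replicate check: intervals are 95% counting intervals within a library, no p-value was computed, and animal, pool and library cannot be told apart from condition.

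Across the 6 libraries 21016 cells were kept, from 492 cells in sham PLX5622 to 9846 at 28 dpi in vehicle, and the median number of unique molecular identifiers (UMIs) per cell lay between 2268.5 and 5127. The study's 14 clusters were used, and 71 of 79 detected cell type markers were highest in the cluster of their name. The exception that touches these genes is the study's monocyte cluster, here called cluster 3. It held the highest level of only 3 of its own 7 monocyte markers, and of 7 of 12 dendritic cell markers. Among its 10 leading genes by fold were H2-Eb1, H2-Aa, H2-Ab1 and Cd74 beside Ccr2 and Cd209a, so monocytes, dendritic cells and border macrophages were not separated in it. The clustering drew on these genes too, and for this reason the level by cluster is a description. Levels are given in CPM (counts per 1000000), with the UMIs of a gene divided by all UMIs of that cluster in that library. A cell barcode occurred in more than 1 library 44 times among all cells, which is small beside 21016.

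The order of the clusters differed between members of the family (plot of levels by cluster). H2-Aa, the α chain of I-A, had its highest median in cluster 3, at 4845 CPM with a range of 3304 to 7284 over the 5 libraries with at least 20 such cells. B cells followed with a median H2-Aa level of 2178 CPM and a range of 1159 to 3876, so the ranges of both clusters met. The next cluster, leptomeningeal cells, was at a median of 117 CPM in 2 libraries, below every value of cluster 3 and B cells, and at 28 dpi 2 of 64 of these cells held 89.3% of the chain UMIs. H2-Ab1, the β chain of I-A, and H2-Eb1, a β chain of I-E that has no surface partner in C57BL/6 mice, kept this order: H2-Ab1 had medians of 4242 and 1854 CPM and H2-Eb1 of 3803 and 2081 CPM in cluster 3 and B cells. The H2-Ab1 ranges of cluster 3 and B cells did not overlap, with a lowest value of 2959 CPM in the first and a highest of 2703 in the second.

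Cd74, the invariant chain, was placed the other way round, with a median of 8244 CPM in B cells and 8029.6 in cluster 3, and these ranges overlapped. Ciita had a median of 72.9 CPM in B cells, with a range of 40.8 to 81.9, and of 50.5 in cluster 3, with a range of 45.6 to 103. Every other cluster of at least 20 cells had a median Ciita level of 1.65 CPM or less. Ciita was sparse throughout, with 384 UMIs in all against 47126 for Cd74.

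The subunits of the peptide editor were spread more widely than the chains they act on. H2-DMa had medians of 464 CPM in B cells, 441 in cluster 3 and 302 in microglia. The ranges of B cells and cluster 3 overlapped, whereas the lowest value of cluster 3, 415 CPM, lay above the highest of microglia, 402 CPM. H2-DMb1 was led by cluster 3 at a median of 456 CPM, followed by microglia at 125 CPM with a range of 83.1 to 233, whereas B cells lay at 71.4 CPM. H2-DMb1 has a near-identical neighbour, H2-DMb2, and reads shared by both genes make the H2-DMb1 counts uncertain. Over 66 pairs of cluster and library, H2-DMa and H2-DMb1 correlated with each other at r = 0.89 on the log2 scale, whereas H2-DMa correlated with H2-Aa at 0.63. The chains correlated with each other at 0.96 to 0.98 and Ciita with them at 0.90 to 0.92. These correlations describe points that share libraries and depth.

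**Figure D1:**
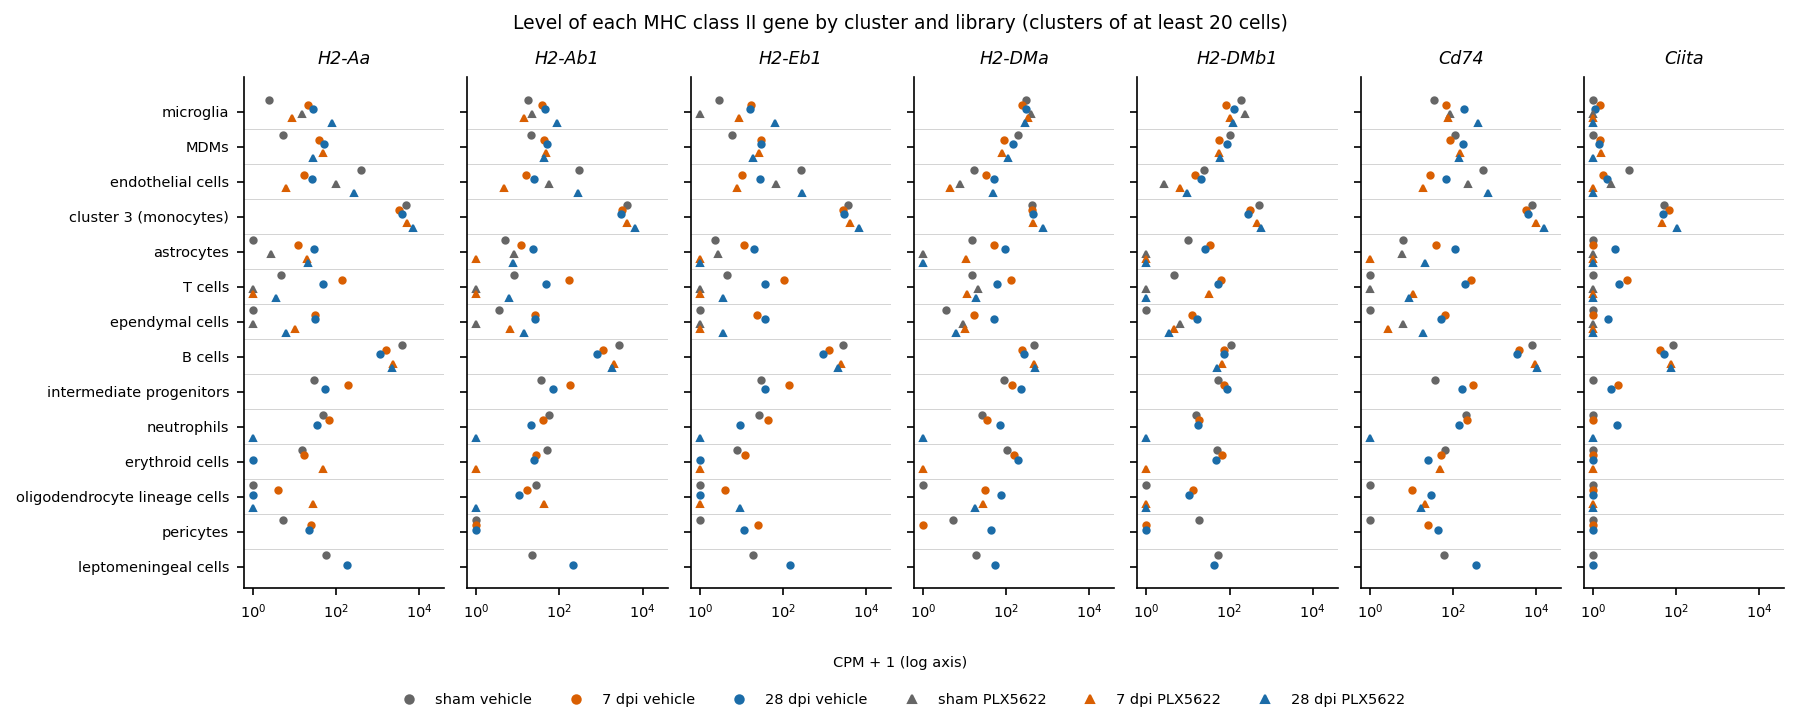
Level of each class II gene (CPM + 1, log axis) in every cluster of at least 20 cells, 1 point per library. The chains and Cd74 are highest in cluster 3 and B cells, and H2-DMa and H2-DMb1 are also high in microglia.

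Outside the family, the genes whose pattern over the same 66 points was most like a member were the following, with Pearson r on log2 CPM among 9445 genes. Rnase6 (0.81) and Bcl11a (0.80) were the nearest of these to H2-Aa, and Bcl11a (0.90) and Rnase6 (0.87) to Ciita, below the values of the chains. H2-DMa was most like H2-Oa (0.91), a subunit of the H2-DO dimer that restrains H2-DM, then Slamf9 (0.90) and Pld4 (0.88). H2-DMb1 was most like Slamf9 (0.87), Irf5 (0.86) and Ifi30 (0.86), a thiol reductase of the class II pathway.

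The promoter elements that the family is known to share could be read for part of it. H2-Aa, H2-Eb1 and H2-DMb1 are shown because they are the members read that held the paired letters described below. H2-DMa was read and did not hold them. The sequences below are from RefSeq, GRCm38.p6, read 5′ to 3′ on the strand of each gene, and capitals mark the letters GNAAC of the X element and ATTGG, an inverted CCAAT box, of the Y element. The H2-Aa stretch is chr17:34287857-34287914 (minus strand), with ATTGG starting 48 bases before the transcription start. The H2-Eb1 stretch is chr17:34305766-34305822 (plus strand), with ATTGG starting 59 bases before the start. The H2-DMb1 stretch is chr17:34153087-34153144 (plus strand), with ATTGG starting 61 bases before the start.
H2-Aa: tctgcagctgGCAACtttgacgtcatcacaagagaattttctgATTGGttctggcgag
H2-Eb1: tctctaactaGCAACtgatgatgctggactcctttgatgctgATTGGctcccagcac
H2-DMb1: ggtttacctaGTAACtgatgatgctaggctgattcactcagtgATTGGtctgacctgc

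Between GNAAC and ATTGG lie 28 bases in H2-Aa, 27 in H2-Eb1 and 28 in H2-DMb1. The pair at a spacing of 25 to 30 bases, searched on both strands, occurred in 343 of 32851 promoters of 300 bases (1.04%), whereas ATTGG alone occurred in 37.4% and GNAAC alone in 84.8%. Of the other class II genes read, H2-Oa and H2-Ob, the H2-DO subunits, and H2-Eb2 held the pair too, and H2-DMb2 did not. These letters at this spacing were not in the windows of H2-DMa. The spacing was chosen after these promoters had been read, and a match is a description of letters. H2-Ab1, Cd74 and Ciita had no entry.

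In whole libraries, class II UMIs were unevenly divided among cell types, and the division differed between members. Cluster 3 held 82.8% of H2-Aa UMIs in sham vehicle, 74.3% at 7 dpi and 57.7% at 28 dpi, although it made up only 75, 602 and 284 cells of these libraries. In the PLX5622 libraries cluster 3 held 38.7, 67.1 and 76.7% of H2-Aa UMIs, from 14, 29 and 63 cells. B cells held 10.6, 10.6 and 16.4% of H2-Aa UMIs in vehicle and 41.5, 14.5 and 9.09% under PLX5622, where in sham they held more than cluster 3. MDMs held nearly as much as B cells at 28 dpi in vehicle, 16.2%. Intermediate progenitors held slightly more than B cells at 28 dpi under PLX5622, 9.59%, and 3 of these 16 cells held 97.5% of the cluster's chain UMIs. H2-DMa was divided otherwise: microglia held 53.0, 32.3 and 44.4% of its UMIs in vehicle, and monocyte-derived macrophages (MDMs) 22.2, 35.6 and 37.9%. Under PLX5622 the microglial share of H2-DMa was 29.2, 26.8 and 19.6%, in libraries where microglia were 5.89, 12.1 and 13.4% of cells against 37.5, 29.0 and 40.4% in vehicle.

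The level in the whole library therefore depended on which member was read. H2-Aa stood at 371, 271 and 150 CPM in sham, 7 dpi and 28 dpi vehicle and at 196, 456 and 801 CPM under PLX5622. Cd74 stood at 662, 507 and 382 CPM in vehicle and at 708, 1054 and 1962 under PLX5622. H2-DMa stood at 169, 138 and 191 CPM in vehicle and at 74.8, 111 and 168 under PLX5622. Both H2-Aa and Cd74 were thus lower after SCI than in sham in vehicle and higher after SCI than in sham under PLX5622, and H2-DMa was lower under PLX5622 at each stage. In whole libraries the number of cells of a type and the RNA per cell cannot be told apart.

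Microglia carried H2-DMa and H2-DMb1 at levels above each single chain in all 6 libraries. The closest were H2-DMb1 and H2-Ab1 at 28 dpi under PLX5622, at 123 and 88.4 CPM with overlapping counting intervals. H2-DMa was at 307 CPM in sham vehicle, 236 at 7 dpi and 297.5 at 28 dpi, and at 402, 339 and 284 CPM in the PLX5622 libraries. H2-DMb1 was at 191, 83.1 and 127 CPM in vehicle and at 233, 102 and 123 under PLX5622. Thus both editor genes had their lowest vehicle value at 7 dpi. Against sham, the 7 dpi log2 ratio was -1.20 (95% counting interval -1.39 to -1.01) for H2-DMb1 and -0.38 (-0.51 to -0.24) for H2-DMa, whose sign turned to 0.22 when libraries were scaled by TMM or DESeq2 factors. Over all microglial genes that had 100 or more UMIs when both libraries were summed, the median log2 ratio was -0.54 at 7 dpi and -0.44 at 28 dpi, so at 7 dpi H2-DMa lay above the middle of all genes and H2-DMb1 below it.

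The chains were rare in microglia and, in vehicle, higher after SCI than in sham. H2-Aa was at 1.43 CPM in sham vehicle, from 3 UMIs in 674 cells, at 19.8 CPM at 7 dpi and at 26.1 CPM at 28 dpi. The log2 ratio to sham was 3.79 (2.22 to 6.09) in the 7 dpi library and 4.19 (2.62 to 6.48) in the later one. Under PLX5622 it was at 14.1, 7.83 and 76.8 CPM, from 2, 3 and 33 UMIs. In sham, 7 dpi and 28 dpi vehicle, H2-Ab1 was at 16.2, 36.1 and 44.4 CPM and H2-Eb1 at 1.91, 16.0 and 14.9 CPM. Each chain was thus higher at both stages than in sham in the vehicle libraries. Cd74 was at 33.9, 66.8 and 189 CPM, which gave log2 ratios of 0.98 (0.62 to 1.36) and, at 28 dpi, 2.48 (2.14 to 2.84). Ciita could not be followed, with 0, 3 and 1 UMIs in microglia of the vehicle libraries and none under PLX5622.

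At 7 dpi, 3 of the 6 members with at least 100 UMIs were at least 2-fold above sham in microglia, against 4.02% of all genes so measured, and 1 of 6 was at least 2-fold below, against 21.5%. At 28 dpi, 4 of 6 were at least 2-fold above sham, against 3.62%, and 0 of 6 at least 2-fold below, against 12.5%. Those above were the chains at both stages, joined by Cd74 at 28 dpi, and the one below was H2-DMb1 at 7 dpi. With TMM or DESeq2 factors H2-DMb1 at 7 dpi was at -0.60 and no longer 2-fold below, and Cd74 was at 1.58 and past 2-fold above. Their median log2 ratio was 1.07 at 7 dpi, and 1.97 in the later library. Ciita did not pass this minimum. The chains and Cd74 reached the minimum mainly through the injured libraries, so these counts describe them and support nothing further. Summed over the 7 members, the log2 ratio was -0.27 (-0.36 to -0.17) in the 7 dpi library, which turned to 0.34 with TMM factors, and 0.34 (0.25 to 0.43) in the 28 dpi library. The sum joins unlike parts: the chains alone gave 1.88 and 2.13, and the H2-DM pair -0.64 and -0.23.

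**Figure D2:**
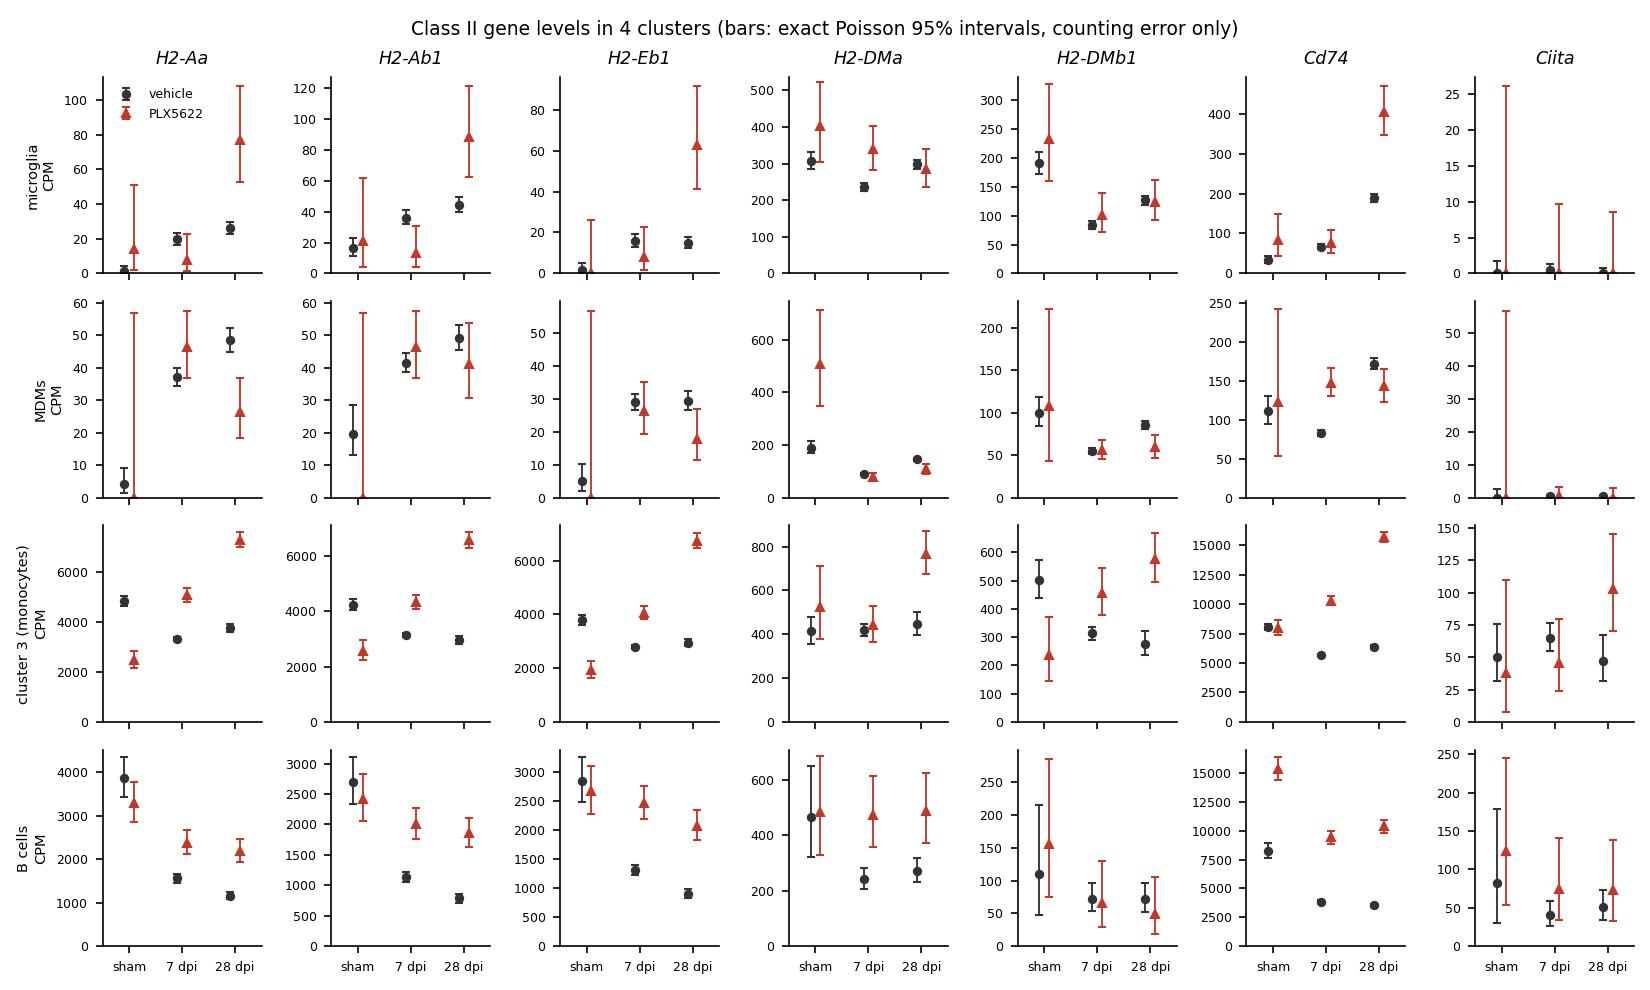
Level (CPM) of the 7 genes in microglia, MDMs, cluster 3 and B cells by stage, with circles for vehicle and triangles for PLX5622 and bars for exact Poisson 95% intervals. In vehicle microglia the chains and Cd74 are higher after injury while H2-DMb1 is lower. In cluster 3 the 28 dpi PLX5622 library is highest for every member.

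Free RNA and mixed barcodes bear on chain levels this low. Summed chains in astrocytes, which should lack them, were at 5.13, 32.7 and 70.0 CPM in sham, 7 dpi and 28 dpi vehicle, against 19.6, 72.0 and 85.4 CPM in microglia. Cd74 gave 4, 7 and 47 UMIs in astrocytes of these libraries and stood there at 113 CPM at 28 dpi, so this limit holds for Cd74 too. Among cells thinned to 1000 UMIs, a chain UMI was found in 2.55, 4.03 and 5.18% of microglia, and in 0.444, 0 and 4.08% of astrocytes. Erythroid cells gave 2.63, 1.89 and 4% in the same libraries. The microglial share was at or within the counting error of astrocytes or erythroid cells in each vehicle library, and how far the levels reflect microglial transcripts was not tested. A few barcodes held much of the rest: 15 of 7018 microglia held 32.5% of all chain UMIs in the cluster, and without barcodes of at least 10 chain UMIs the summed chains stood at 19.6, 37.4 and 69.8 CPM.

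H2-DMa was distributed otherwise. A UMI of H2-DMa was found in 28.1, 21.6 and 24.9% of thinned microglia, against 0.889, 7.84 and 10.2% of astrocytes. Erythroid cells stood higher than astrocytes, with H2-DMa at 106, 154 and 189 CPM in these libraries, from 15, 40 and 16 UMIs. The part of free RNA in the microglial H2-DMa level was not tested. In microglia H2-DMa UMIs were spread over cells, with no vehicle microglia holding 10 or more. H2-DMa and H2-DMb1 together made up 96.2% of editor and chain UMIs in microglia of sham vehicle, 81.6% at 7 dpi and 83.2% at 28 dpi. In cluster 3 this share was 6.64, 7.34 and 6.95%, and in B cells 5.73, 7.26 and 10.8%. Capture may differ between genes, so the share is read between clusters and not as a molar ratio.

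**Figure D3:**
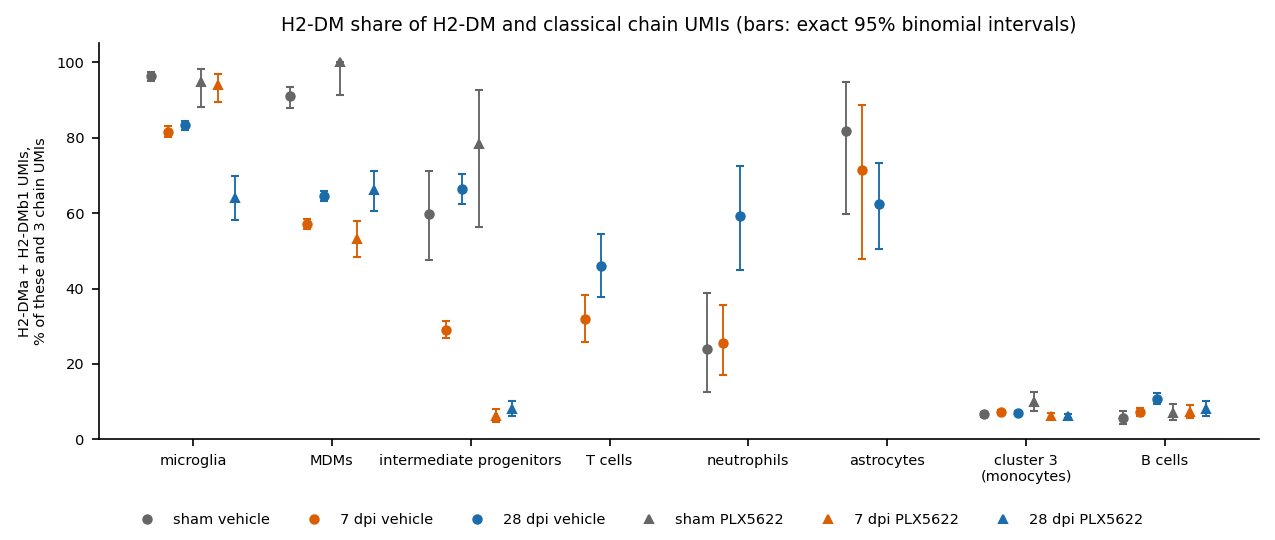
Share (%) of H2-DMa and H2-DMb1 in the summed UMIs of these genes and H2-Aa, H2-Ab1 and H2-Eb1, by cluster and library, with exact 95% binomial intervals. Microglia lie at 64.1% to 96.2%, MDMs at 53.0% to 100%, and cluster 3 and B cells at 5.73% to 10.8%.

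The microglia that remained under PLX5622 numbered 29, 61 and 126 cells. Their H2-DMa and H2-DMb1 levels at 28 dpi differed from vehicle by -0.07 (-0.34 to 0.20) and -0.04 (-0.47 to 0.36) on the log2 scale. H2-Eb1 was at 62.8 CPM there against 14.9 in vehicle, and Cd74 was at 405 CPM against 189. Yet 3 of the 126 cells held 70.4% of the chain UMIs, and without them the summed chains were at 69.1 CPM, against 69.8 in vehicle treated alike.

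MDMs resembled microglia in carrying the editor above the chains, by a smaller margin. H2-DMa was at 190, 88.3 and 145 CPM in sham, 7 dpi and 28 dpi vehicle, from 185, 3023 and 3313 cells. H2-DMb1 was at 100.1, 55.0 and 85.7 CPM in these libraries. H2-Aa was at 4.23, 37.1 and 48.6 CPM, H2-Ab1 at 19.7, 41.6 and 49.3 and H2-Eb1 at 4.94, 29.0 and 29.4. The chains were thus lowest in the sham library and the editor genes lowest at 7 dpi. Cd74 was at 111, 82.8 and 172 CPM, so it was lower than sham at 7 dpi and higher at 28 dpi. Ciita gave 0, 9 and 5 UMIs.

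At 7 dpi, 3 of 6 members with at least 100 UMIs were at least 2-fold above sham in MDMs, against 4.09% of all genes, and 1 of 6, H2-DMa with a log2 ratio of -1.11, was at least 2-fold below, against 11%. With TMM or DESeq2 factors H2-DMa was at -0.80 and no longer 2-fold below. At 28 dpi, 3 of 6 were at least 2-fold above sham, against 1.53%. These were again the chains, with log2 ratios at 28 dpi of 3.52 for H2-Aa, 1.32 for H2-Ab1 and 2.57 for H2-Eb1. The chains reached the minimum mainly through the injured libraries here too, so their counts are a description. The median of all genes in MDMs was -0.25 at both stages. The chain UMIs were concentrated: 74 of 6791 MDMs, those with at least 10 chain UMIs, held 63.6% of them. Without these cells the summed chains of vehicle MDMs stood at 28.9, 31.6 and 58.9 CPM, and H2-Ab1 at 7 dpi was below sham by -0.30. Astrocytes of the same libraries, with all their cells, were at 5.13, 32.7 and 70.0 CPM. A dendritic cell marker UMI was present in 20.3% of the 74 cells and in 1.00% of MDMs without chain UMIs, a monocyte marker UMI in 51.4% and 20.2%, and 14.9% and 6.48% were called as doublets. The part of free RNA, dendritic cells, monocytes and doublets in the chain levels of MDMs was not tested.

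PLX5622 left 9 MDMs in sham, with 48 member UMIs in all, and 100 and 161 at 7 and 28 dpi. At 28 dpi H2-Aa was at 26.4 CPM against 48.6 in vehicle, a log2 ratio of -0.88, and H2-Eb1 was at 17.9 CPM against 29.4. H2-DMa was at 107 CPM against 145, and H2-DMb1 at 59.1 CPM against 85.7. Of the members, 0 of 6 were at least 2-fold below vehicle, against 2.48% of all genes, although 5 of 6 counting intervals lay below 0. H2-Ab1 was the exception, at -0.26 (-0.69 to 0.15).

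Cluster 3 had the highest median level of each chain, and the level differed between its libraries. H2-Aa was at 4845 CPM in sham vehicle, 3304 at 7 dpi and 3767 at 28 dpi, and at 2482, 5074 and 7284 CPM under PLX5622. H2-Ab1 was at 4242, 3142 and 2959 CPM in vehicle and at 2582, 4325 and 6584 under PLX5622. H2-Eb1 was at 3803, 2801 and 2947 CPM in vehicle and at 1943, 4059 and 6748 under PLX5622. Within the vehicle diet all 3 chains were highest in sham. Over the 6 libraries they were highest at 28 dpi under PLX5622 and lowest in sham under PLX5622, the latter from 14 cells.

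Cd74 was at 8029.6, 5679.9 and 6353 CPM in vehicle and at 7985, 10278 and 15697 under PLX5622. H2-DMb1 was, like the chains, highest in sham in vehicle and highest at 28 dpi under PLX5622, at 502.5, 313 and 276 CPM in vehicle and 238, 456.5 and 578 under PLX5622. H2-DMa lay between 415 and 447 CPM in the vehicle libraries, with 526.5, 441 and 767 under PLX5622. Ciita was at 50.5, 65.2 and 47.0 CPM in vehicle, from 23, 142 and 30 UMIs, and at 37.6, 45.6 and 103 under PLX5622, from 3, 12 and 32 UMIs. The Ciita interval of 7 dpi over sham in vehicle spanned 0, at 0.37 (-0.27 to 1.07).

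In vehicle, no member differed 2-fold between injured and sham cluster 3. At 7 dpi 0 of 7 were at least 2-fold below sham, against 5.52% of all genes, and at 28 dpi 0 of 6 were, against 4.56%. The log2 ratios at 7 dpi were -0.55 for H2-Aa, -0.43 for H2-Ab1, -0.44 for H2-Eb1, -0.50 for Cd74 and -0.68 for H2-DMb1, and their counting intervals lay below 0. H2-DMa was at 0.02. At 28 dpi the largest difference was again that of H2-DMb1, at -0.87. These small differences did not hold across ways of weighting cells: with every cell weighted alike the 28 dpi ratio was 0.12 for H2-Aa, 0.12 for H2-Eb1 and 0.13 for Cd74, and without cells carrying a border macrophage marker UMI (Mrc1, Lyve1, Cd163, Cbr2) it was 0.10, 0.17 and 0.08. Without those cells the 7 dpi ratio was 0.0082 for H2-Ab1 and 0.03 for H2-Eb1. The markers summed to 922, 203 and 687 CPM in the vehicle libraries.

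Between diets at 28 dpi, every member was higher under PLX5622 in cluster 3. The log2 ratio was 0.95 (0.87 to 1.03) for H2-Aa, 1.15 (1.06 to 1.24) for H2-Ab1 and 1.20 (1.10 to 1.29) for H2-Eb1. It was 1.305 (1.24 to 1.37) for Cd74, 1.07 (0.76 to 1.37) for H2-DMb1 and 0.78 (0.52 to 1.03) for H2-DMa. Ciita, with 62 UMIs in both libraries, gave 1.13 (0.36 to 1.89). Of the 6 members at the minimum of 100 UMIs, 4 were at least 2-fold higher under PLX5622, against 2.96% of all genes, with a median log2 ratio of 1.11 against -0.04 over all genes. The sum of the 7 gave 1.17 (1.13 to 1.21), and between 0.83 and 1.37 under the alternatives tried. In sham the same ratio was -0.47 (-0.56 to -0.39), and at 7 dpi it was 0.65 (0.61 to 0.69).

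**Figure D4:**
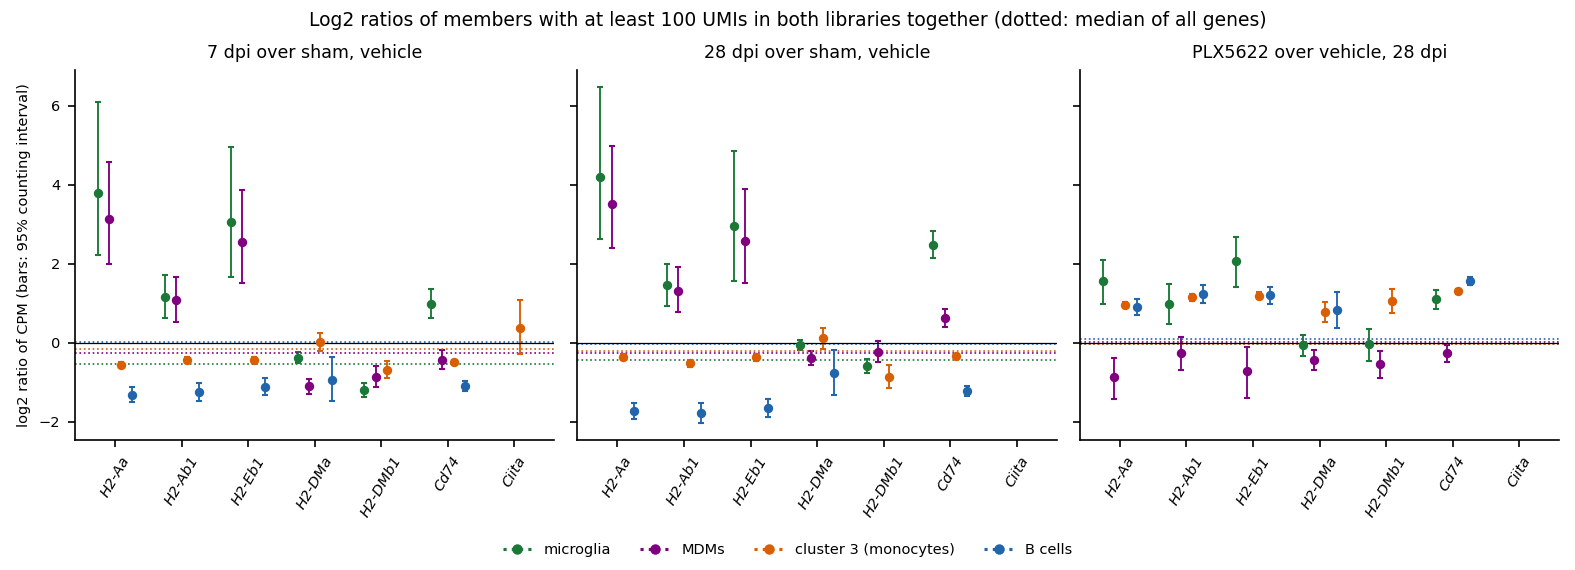
Log2 ratios of CPM with 95% counting intervals for members at the minimum of 100 UMIs, with the median of all genes dotted per cluster. Chains are above sham in microglia and MDMs and below it in B cells and, by these totals, in cluster 3, where H2-Aa and H2-Eb1 turned sign at 28 dpi with cells weighted alike, and between diets at 28 dpi the members shown are above 0 in cluster 3 and B cells.

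The makeup of cluster 3 differed with the same libraries. Dendritic cell markers summed to 415, 296 and 358 CPM in vehicle and to 326, 411 and 921 under PLX5622, and at 28 dpi a UMI of them was found in 28.2% of vehicle and 68.3% of PLX5622 cells. Border macrophage markers were at 687 CPM at 28 dpi in vehicle and at 19.3 under PLX5622, in 28.2% and 6.35% of cells. These shares of cells were not thinned and move with depth, and the median UMIs per cell were 1830 in vehicle and 4764 under PLX5622. Ly6c2 and Chil3, genes of classical monocytes, summed to 507 and 751 CPM. B cell markers were at 147 and 202 CPM. The part of this makeup in the class II difference was not tested beyond leaving out cells with a border macrophage marker UMI, without which the summed ratio was 1.06.

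Per cell, class II expression in cluster 3 was split between cells without any chain UMI and cells with very many. In vehicle, 34 of 75 sham cells, 228 of 602 cells at 7 dpi and 115 of 284 at 28 dpi had no chain UMI. Under PLX5622 it was 9 of 14, 8 of 29 and 11 of 63. At the other end, 33.3, 35.0 and 39.1% of vehicle cells and 21.4, 37.9 and 55.6% of PLX5622 cells had summed chains above 10000 CPM of the cell. The vehicle libraries thus lay close together at the upper end, and the 28 dpi PLX5622 library stood apart from them. The median chain level per cell was less even, at 219, 1499 and 2133 CPM of the cell in vehicle and 0, 3689 and 22187 under PLX5622. Cells were not thinned here, so the numbers at 0 move with depth. Median UMIs per cell lay between 1830 at 28 dpi in vehicle and 9405 at 7 dpi under PLX5622.

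**Figure D5:**
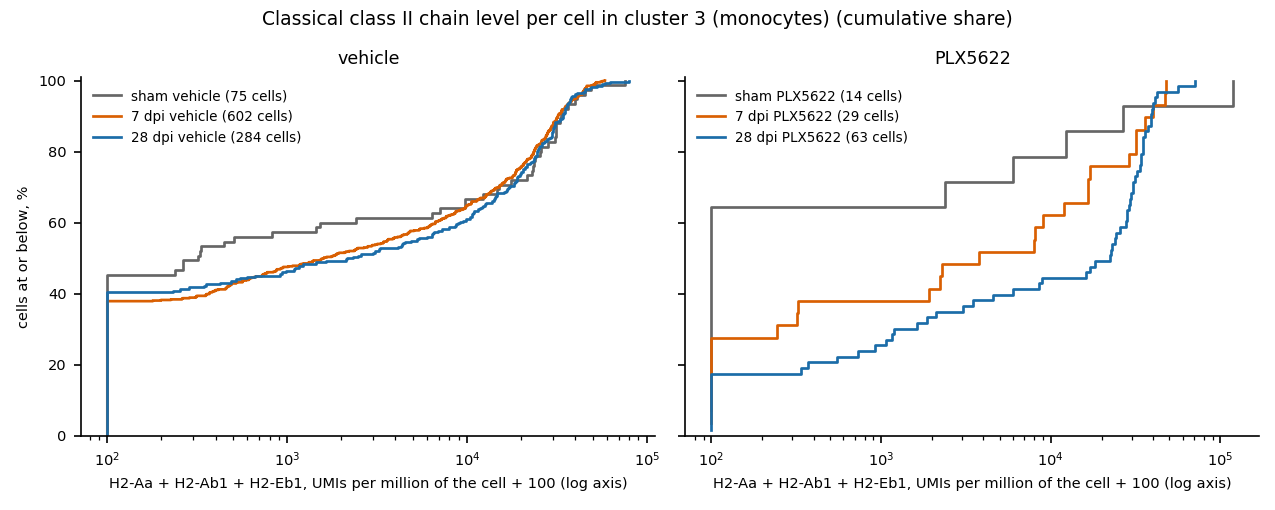
Cumulative share of cluster 3 cells (%) by summed H2-Aa, H2-Ab1 and H2-Eb1 level per cell (CPM of the cell + 100, log axis), with 1 line per library. The vehicle lines start at 37.9% to 45.3% of cells at 0 and lie close above 10000 CPM, and under PLX5622 the share at 0 is 64.3%, 27.6% and 17.5% in sham, 7 dpi and 28 dpi.

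Thinned to 1000 UMIs, the share of cluster 3 cells with a chain UMI was 45.5% (33.1 to 58.2) in sham vehicle, 55.9% (51.8 to 60.02) at 7 dpi and 59.6% (53.2 to 65.8) at 28 dpi. Under PLX5622 it was 27.3% (6.02 to 61.0), 67.9% (47.6 to 84.1) and 77.0% (64.5 to 86.8). For Cd74 the share at 28 dpi was 64.1% (57.7 to 70.1) in vehicle and 90.2% (79.8 to 96.3) under PLX5622. These intervals are over cells of 1 library each and say nothing of the spread between pools.

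Cells with at least 10 chain UMIs numbered 510 of 1067 in cluster 3 and held 99.0% of its chain UMIs. This limit is a range and not a cell type, it moves with depth, and 152 cells lay between it and 0. Compared with the 405 cells without chain UMIs, they had 112 against 3.07 CPM of Ciita, 707 against 143 of H2-DMa, 602 against 63.6 of H2-DMb1 and 13247 against 150.3 of Cd74. Cd209a, a lectin of dendritic cells derived from monocytes, was at 292 against 6.13 CPM. Ly6c2 was at 159 against 726 CPM and Lyve1, a gene of border macrophages, at 23.7 against 168. Class II members other than the chains thus lay in the same cells as the chains, and Ly6c2 and Lyve1 mostly in the others. Ly6c2 does not stand for all monocyte markers. These summed to 1950 against 3433 CPM, but a UMI of them was found in 87.1% against 67.7% of cells. Within the cells of at least 10 chain UMIs, the summed chains were at 25343, 18119 and 21662 CPM in vehicle and at 13690.5, 19371 and 27529 under PLX5622. Over the whole cluster they were at 12890, 9247 and 9673 CPM in vehicle and at 7007, 13458 and 20616 under PLX5622. The cells were chosen by these same UMIs, so the spans of both sets are not compared.

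B cells carried the chains and Cd74 at levels next to those of cluster 3. H2-Aa was at 3876 CPM in sham vehicle, 1558 at 7 dpi and 1159 at 28 dpi, and at 3294, 2384 and 2178 under PLX5622. Cd74 was at 8244, 3857 and 3532 CPM in vehicle and at 15383, 9436 and 10379 under PLX5622. H2-DMa was at 464, 242 and 272 CPM in vehicle and at 482, 472 and 486 under PLX5622. The sham library was highest for H2-Aa and Cd74 in either diet, and the vehicle libraries after SCI were lowest for all 3 genes.

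In vehicle at 28 dpi, 4 of 5 members with at least 100 UMIs were at least 2-fold below sham in B cells, against 9.64% of all genes, with a median of -1.65 against -0.04 over all genes. The log2 ratios were -1.74 for H2-Aa, -1.78 for H2-Ab1, -1.65 for H2-Eb1 and -1.22 for Cd74, with -0.77 for H2-DMa. Between diets at 28 dpi, 3 of 5 members were at least 2-fold higher under PLX5622, against 6.1% of all genes, namely H2-Ab1 at 1.24, H2-Eb1 at 1.20 and Cd74 at 1.56. H2-DMb1 and Ciita did not reach the minimum. Only 23 B cells came from sham vehicle and 18 from sham PLX5622.

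The B cell cluster itself was unlike between libraries. Its B cell markers summed to 10947, 3821 and 6166 CPM in vehicle and to 12897, 7019 and 11577 under PLX5622. Cathepsins B, D and L, lysosomal proteases abundant in macrophages, summed to 682, 16367 and 14021 CPM in vehicle and to 155, 4941 and 1125 under PLX5622. Chain UMIs per B cell marker UMI were 0.862, 1.05 and 0.462 in vehicle and 0.651, 0.976 and 0.528 under PLX5622, so at 28 dpi they were closer between diets than the CPM values and below sham in both, and at 7 dpi they were not below sham. Cd74 UMIs per B cell marker UMI at 28 dpi were 0.573 in vehicle and 0.897 under PLX5622, so the Cd74 difference remained on this scale. The part of macrophage RNA in the lower chain levels of the injured vehicle libraries was not tested.

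The invariant chain was not in a fixed ratio to the chains it serves. Cd74 UMIs per chain UMI were 0.623, 0.614 and 0.657 in cluster 3 of the vehicle libraries and 1.14, 0.764 and 0.761 under PLX5622. In B cells the ratio was 0.874, 0.960 and 1.24 in vehicle and 1.83, 1.38 and 1.70 under PLX5622. Microglia were at 1.73, 0.928 and 2.21 in vehicle, above cluster 3 at each stage, and at 28 dpi astrocytes were at 1.62. Cluster 3 was the most even of these across the vehicle libraries.

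High chain levels in other clusters rested on a few barcodes in several libraries. In endothelial cells the summed chains stood at 951 CPM in sham vehicle and 830 at 28 dpi under PLX5622, and 1 barcode held 95.9% and 97.9% of these UMIs. Intermediate progenitors were at 4487 CPM at 7 dpi and 7594 at 28 dpi under PLX5622, where 1 of 10 cells held 98.1% and 3 of 16 cells held 97.5%. Likewise 3 of 153 T cells at 7 dpi held 85.5%, 1 of 275 ependymal cells at 28 dpi 92.9% and 1 of 64 neutrophils in sham 91.4% of the chain UMIs of their cluster in vehicle. These levels describe a few barcodes and not the clusters.

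Other genes of the pathway, from lists chosen beside the members, were read in the same comparisons among those with at least 100 UMIs. Of the H2-DO subunits, H2-Oa in microglia was at 66.8, 34.8 and 59.8 CPM in vehicle, and 0 of 2 differed 2-fold from sham in microglia at either stage. Of all genes, 4.02% at 7 dpi and 3.62% at 28 dpi were at least 2-fold above sham, and 21.5 and 12.5% below. With 2 genes, a count of 0 does not stand apart from these shares. In cluster 3, H2-Oa was at 17.6, 89.5 and 104 CPM in vehicle and at 37.6, 60.9 and 257 under PLX5622. H2-Ob, its partner, was highest in B cells, at 546, 144 and 177 CPM in vehicle and 420, 273 and 461 under PLX5622.

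Inducers and promoter factors were read in vehicle microglia. Of 8 inducers and interferon receptors measured there, 0 were at least 2-fold above sham at 7 and 28 dpi, against 4.02 and 3.62% of all genes, and 2 were at least 2-fold below, Ifngr1 and Irf1, against 21.5 and 12.5%. The list's medians, -0.57 and -0.49, lay near the -0.54 and -0.44 of all genes. Ifngr1, the ligand-binding chain of the interferon-γ receptor, was at 1052, 251 and 293 CPM. Among 5 promoter factors measured at 7 dpi, Nfya and Nfyb were at least 2-fold below sham, against 21.5% of all genes. March1, the ligase that removes class II from the surface, was at 162, 41.0 and 58.8 CPM, and Cd86, a costimulator, at 181, 82.2 and 100.1. B2m, the light chain of class I, was at 2396, 2360 and 2928 CPM, and of 5 class I genes measured only Tap2 differed 2-fold, below sham at both stages.

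In cluster 3 between diets at 28 dpi, the processing enzymes divided. Of 6 measured, Ifi30 alone was at least 2-fold higher under PLX5622, at 1515 against 668 CPM, beside 2.96% of all genes. Ctsl, Ctsb, Ctsd and Lgmn were at least 2-fold lower, against 13.1% of all genes. Ctsd was at 847 against 5280 CPM. Irf8, a transcription factor of dendritic cells and B cells, was at 696 against 358 CPM. Of 3 class I genes measured, 0 differed 2-fold, while 4 of 4 border macrophage markers were at least 2-fold lower.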

How the data were processed

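Droplet libraries (10x Chromium 3′ v3) were sequenced by the authors, who deposited raw UMI counts per gene and cell and a table of cells with cluster numbers. Per the methods, reads were counted with Cell Ranger and an Ensembl annotation, and cells were filtered, integrated and clustered in Seurat. The submitters' processing notes name GRCm38 without saying for which data. Cells with fewer than 200 genes were absent, 716 cells exceeded the stated upper limit of 3000 genes, and the matrices held 0 mitochondrial genes. Counts were summed per cluster and library and divided by the total (CPM). Intervals are exact (Poisson, conditional binomial, Clopper-Pearson, 95%) and cover counting error only. A gene counted as different at 2-fold or more with at least 100 UMIs summed over both libraries, and at 0 UMIs the floor was 3 counts. Doublets were left in, and Scrublet in scanpy 1.11.5 called a preset expected share of each library. The text names the 7 members, the genes of the pathway lists, and for likeness at most 3 genes per member (genes of at least 500 UMIs, log2(CPM + 10)). Members and lists were chosen with earlier results of these data known. Alternatives used edgeR 4.0.16 TMM factors, DESeq2 1.42.0 size factors, thinning, equal cell weights and left-out cells. Python 3.11.15 and R 4.3.3 were used, and ratio scripts were tested on simulated data. The 14 bulk samples were not analysed here.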

Additional observations from a re-analysis of the deposited data

Results flagged for a closer look

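The comparisons below had opposite signs in different stages or diets for the summed members, as log2 ratios with 95% counting intervals. Each rests on 1 pool per condition, comparisons share libraries, and the difference between ratios was not tested. In MDMs, PLX5622 over vehicle was 0.78 (0.32 to 1.20) in sham, from 9 and 185 cells, 0.27 (0.15 to 0.38) at 7 dpi and -0.43 (-0.56 to -0.30) at 28 dpi. The MDM ratio of 28 dpi to sham was 0.30 (0.18 to 0.42) in vehicle and -0.90 (-1.33 to -0.45) under PLX5622. Both ratios that use the MDMs of sham PLX5622 rest on 48 UMIs of 9 cells, and 1 of these cells held 16 of the 33 H2-DMa UMIs.

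In cluster 3, PLX5622 over vehicle was -0.47 (-0.56 to -0.39) in sham, from 14 and 75 cells, against 0.65 (0.61 to 0.69) at 7 dpi and 1.17 (1.13 to 1.21) at 28 dpi. The ratios to sham were -0.48 and -0.38 for 7 and 28 dpi in vehicle, and 0.64 and 1.26 under PLX5622. All of the PLX5622 ratios to sham share the sham library of 14 such cells, of which 9 had no chain UMI.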

How the results depend on the processing

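Ratios are log2 values of the 7 members summed unless a gene is named, and the cause of each shift was not tested. With TMM and DESeq2 factors, microglia at 7 dpi over sham changed from -0.27 to 0.34 and 0.33, and H2-DMa there to 0.223 and 0.221. Microglia at 28 dpi became 0.806 and 0.808, MDMs -0.055 and -0.054 at 7 dpi and 0.583 and 0.580 at 28 dpi, cluster 3 -0.241 and -0.241 at 7 dpi and -0.170 and -0.171 at 28 dpi, and cluster 3 between diets at 28 dpi 1.32 and 1.33. After thinning to 1000 UMIs, microglia gave -0.38 and 0.21 at 7 and 28 dpi, MDMs -0.60 and 0.10, cluster 3 -0.11 and 0.052, and cluster 3 between diets 0.83. Thinning also turned H2-Ab1 to 0.087 at 7 dpi in cluster 3 and, at 28 dpi, H2-Ab1 to 0.068, H2-Eb1 to 0.0084 and Cd74 to 0.15. With each cell weighted alike, MDMs gave -0.59 and 0.16, cluster 3 -0.052 and 0.080, and the diet ratio at 28 dpi was -0.13 in MDMs and 0.85 in cluster 3. This weighting turned H2-Aa, H2-Eb1 and Cd74 at 28 dpi in cluster 3 to 0.12, 0.12 and 0.13. Totals without ribosomal protein genes gave -0.092 and 0.47 in microglia, -0.36 and -0.27 in cluster 3, and 1.37 between diets. Without called doublets cluster 3 gave -0.31 at 28 dpi and 1.10 between diets. Leaving out cells with a B or T cell marker UMI gave -0.39, -0.33 and 1.21.

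Both of the following were chosen after seeing the data. Without cells of at least 10 chain UMIs, microglia gave -0.44 at 7 dpi, and MDMs -1.01 at 7 dpi and -0.068 at 28 dpi, with H2-Ab1 at -0.30 in the former. Without cells carrying a border macrophage marker UMI, cluster 3 gave -0.062, 0.071 and, between diets, 1.06. H2-Ab1 and H2-Eb1 then turned to 0.0082 and 0.027 at 7 dpi, and H2-Aa, H2-Ab1, H2-Eb1 and Cd74 to 0.10, 0.0024, 0.17 and 0.076 at 28 dpi. The share of vehicle cluster 3 cells with a chain UMI at 28 dpi was 51.8% when thinned to 500 UMIs. The genes at least 2-fold higher numbered 259 in microglia at 28 dpi and 35 in cluster 3 between diets, against 617 and 3025 with a minimum of 1 UMI and 397 and 132 with a minimum of 30. The other 32 alternative values of these results and 327 of single members moved less than their counting interval, while 140 of single members moved further. A change of sign was counted apart only where the counting interval left 0, so these 140 can include sign changes of ratios whose interval spanned 0. Depth limits Ciita outside cluster 3 and B cells, and every PLX5622 sham value rests on few cells. No paired analysis was possible because each condition is 1 library.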
